A study of Rattus norvegicus with 18 samples.

Results

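miR-22 is a miRNA whose hairpin gives 1 mature strand from each arm, rno-miR-22-3p and rno-miR-22-5p. Both were read from a table of raw small RNA read counts of rat gastrocnemius muscle that lists 909 entries, 763 known miRNAs and 146 predicted candidates. The 2 entries were selected by their name, after rno-miR-22-3p had been seen among the entries called downregulated in old AL against young AL muscle. The values of that comparison, its call and adjusted p included, therefore chose miR-22. They are printed as a description of that choice and are not a test of miR-22. Both comparisons with old CR use libraries of that same comparison and are described in the same way.

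The 18 libraries, 1 per rat, came from male Brown Norway rats in 3 groups of 6. Young AL rats (replicates 1 to 6) were fed ad libitum (AL) and were 6 months old, and old AL rats (replicates 7 to 12) were fed ad libitum and were 28 months old. Old CR rats (replicates 13 to 18) were 28 months old and had received a calorie-restricted (CR) ration from 2 months of age, set at 55% of what AL rats ate. All rats were of 1 sex and strain and had no other treatment named in the labels, and no young CR group was among the samples. These are whole-muscle RNA samples, in which fewer cells of a type and less RNA per cell cannot be told apart.

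miRNAs are cut from a hairpin transcript as a short duplex, of which 1 strand is loaded into an Argonaute protein and directs it to messenger RNAs that pair with its seed, bases 2 to 8. miR-22 is a conserved miRNA that is abundant in skeletal and heart muscle, where its 3p arm is the main product. It is known to promote growth of heart muscle cells and differentiation of myoblasts, and the deacetylases Sirt1 and Hdac4 are among its known targets.

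The mature sequences are shown because the arms direct binding through different seeds, in capitals here. They are taken from the RefSeq miRNA table for GRCr8, in which 2 of 2 members were found.
rno-miR-22-3p: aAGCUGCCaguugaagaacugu
rno-miR-22-5p: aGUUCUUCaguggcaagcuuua
Each arm is 22 bases long, with a GC content of 45.5% in rno-miR-22-3p and 40.9% in rno-miR-22-5p. The seed AGCUGCC of rno-miR-22-3p was held by 1 of the 724 mature entries of that table (693 names), itself. The seed GUUCUUC of rno-miR-22-5p was also held by 1 entry, although the same letters occurred elsewhere in rno-miR-298-5p. Neither arm therefore has a seed relative in the table, nor does any entry share bases 2 to 7 with it. No other entry of the count table had counts that matched those of either arm (0 entries).

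The hairpin is shown with both arms in capitals, the 5p arm first.
Mir22: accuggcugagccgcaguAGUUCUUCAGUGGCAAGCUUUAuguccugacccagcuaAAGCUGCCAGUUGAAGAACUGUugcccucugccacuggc
It is annotated in GRCr8 on the + strand at chr10:60805331-60805425, 95 bases. The 5p arm takes bases 19 to 40 (chr10:60805349-60805370) and the 3p arm bases 57 to 78 (chr10:60805387-60805408), with 16 bases between them. The predicted fold had a minimum free energy of −43.0 kcal/mol, and 19 of the 22 bases of the 5p arm were paired with the 3p arm. On either side of Mir22 in the RefSeq gene order lie the protein-coding genes Serpinf2, Wdr81, Tlcd2, Prpf8 and Rilp, and the miRNA gene Mir6326, which had a total of 0 counts over the libraries. Mir22 therefore has no counted miRNA among its 6 nearest genes.

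The libraries held 34940346 to 83110905 counts (median 66868466), of which the entries of miR-1, the main miRNA of striated muscle, took 60.7% to 86.8%. Counts were scaled with TMM, which sets a factor for each library from the bulk of its entries, and are given as counts per 1000000 scaled counts (CPM). The TMM factors ran from 0.656 in old AL replicate 11 to 2.08 in old AL replicate 7, so that the scaling weighs most in these libraries and in old CR replicate 13 (0.663). No extraction or sequencing batch was named in the labels. Of the miRNAs of striated muscle, listed by name as markers of the tissue, 13 of 16 entries had enough counts to be tested. The summed level of the list was 88041 to 206050 CPM in the 18 libraries. The list leaves out rno-miR-1b (mean 223669 CPM) and rno-miR-3571 (mean 278404 CPM), which are among the entries of miR-1 above. Its sum is therefore only a part of the muscle miRNA counts.

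rno-miR-22-3p was among the abundant miRNAs of this muscle in every library. It had 54072 to 152373 counts per library, 1825727 in all, so that counting error alone was at most 0.430% of a value. Over the 18 libraries its mean was 1650 CPM, the 28th of the known miRNA entries. It stood between rno-miR-3588 (1709 CPM) and the differentiation-associated rno-let-7a-5p (1456 CPM). Entries with near-equal levels each hold a place in this order, such as rno-miR-3588 and rno-miR-125b-5p (1714 CPM). rno-miR-22-5p had 2406 to 9662 counts per library, 89766 in all, with a counting error of 1.02% to 2.04%. It stood 87th, with a mean of 79.5 CPM, next to rno-miR-126a-5p, from the endothelial miR-126 hairpin (87.8 CPM), and rno-miR-203a-3p (79.1 CPM). Both arms were thus measured well above the counting limit, and the spread between libraries, 1 per rat, set the precision. CPM of mature miRNAs are compared here without a length term, since both arms have the same length.

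The level of rno-miR-22-3p in young AL muscle was lowest at 1611 CPM (replicate 2), with a median of 2006 and a highest value of 2768 (replicate 4). In old AL muscle the lowest value was 1190 CPM (replicate 11), the median 1348 and the highest 1588 (replicate 8). In old CR muscle the lowest value was 1276 CPM (replicate 18), the median 1403 and the highest 1897 (replicate 13). All 6 old AL libraries lay below every young AL library, whereas the old CR libraries overlapped with both AL groups. In old CR, 4 of 6 libraries lay below every young AL library and 2 of 6 above every old AL library. The group means (SD, n = 6 each) were 2071 ± 447 CPM for young AL, 1498 ± 251 CPM for old CR and 1381 ± 140 CPM for old AL. The old groups, neighbours in this order, differed by less than the SD of either.

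**Figure D1:**
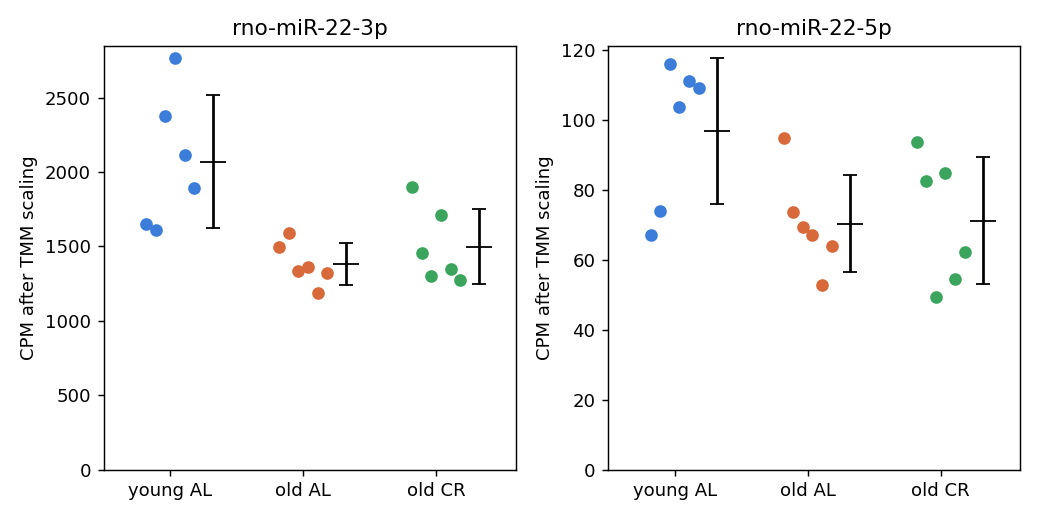
CPM after TMM scaling of rno-miR-22-3p (left) and rno-miR-22-5p (right) in each library, with 1 point per rat and the mean ± SD beside each group of 6. The old AL points of rno-miR-22-3p (1190 to 1588) all sit below the young AL points (1611 to 2768), while the groups overlap for rno-miR-22-5p.

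The level of rno-miR-22-5p in young AL muscle was lowest at 67.2 CPM (replicate 1), with a median of 106 and a highest value of 116 (replicate 3). In old AL muscle it ran from 53.0 CPM (replicate 11) through a median of 68.2 to 94.98 (replicate 7). In old CR muscle it ran from 49.4 CPM (replicate 15) through a median of 72.5 to 93.8 (replicate 13). The groups overlapped, and 3 of 6 old AL and 3 of 6 old CR libraries lay below every young AL library. Young AL replicates 1 and 2 were the lowest of their group for both arms. In their column names the first number does not run on with the other young AL libraries, while the second number does. Mean levels (SD, n = 6 each) were 96.9 ± 20.9 CPM for young AL, 71.3 ± 18.2 for old CR and 70.4 ± 13.9 for old AL, with the order of the old groups again within the spread.

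In old AL against young AL muscle, rno-miR-22-3p had a log2 fold change of −0.59 ± 0.134 (SE, 95% interval −0.88 to −0.30), which is 1.501-fold lower. An entry was called when its Benjamini-Hochberg adjusted p from the edgeR quasi-likelihood test was at most 0.05 and its fold change at least 1.5. By this rule 24 of 732 tested entries (3.28%) were called, 17 of them lower (2.32%), and 1 of 2 members was called, rno-miR-22-3p. Its log2 fold change of −0.586 lay just past the limit of 0.585. It had the smallest fold change of the 24, and the next were rno-miR-140-3p (1.56-fold higher), the cartilage-associated miRNA, and rno-miR-3074 (1.62-fold lower). None of the entries that passed the adjusted p fell short of the fold limit (0 entries). On the side of the p, rno-miR-202-5p was the last entry inside (adjusted p = 0.0471, edgeR) and rno-miR-411-5p the first outside (adjusted p = 0.0616, edgeR), against 0.0353 for rno-miR-22-3p. The groups did not overlap for 26 of the 732 entries (3.55%), rno-miR-22-3p among them. The call depended on single rats and was lost without any 1 of 9 of the 12 libraries (adjusted p = 0.0527 to 0.0876 by edgeR) and held without young AL replicate 1, young AL replicate 2 or old AL replicate 8, while the log2 fold change stayed between −0.65 and −0.51. Since these values chose miR-22, nothing is read from them.

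rno-miR-22-5p, which has fewer counts, had a log2 fold change of −0.47 ± 0.166 (SE, 95% interval −0.83 to −0.11), 1.39-fold lower, in old AL against young AL. It was not called. The median log2 fold change of all tested entries was 0.06, and 19.1% of them had a lower value than rno-miR-22-3p and 21.99% a lower value than rno-miR-22-5p. Among the 204 entries with a mean of at least 10 CPM, whose fold changes vary less, 19 (9.31%) were lower than rno-miR-22-3p and 24 (11.8%) lower than rno-miR-22-5p. Larger decreases were therefore not rare, but most of them belonged to entries with fewer counts. The arms come from 1 hairpin and were counted in the same libraries, so they are not independent of each other.

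**Figure D2:**
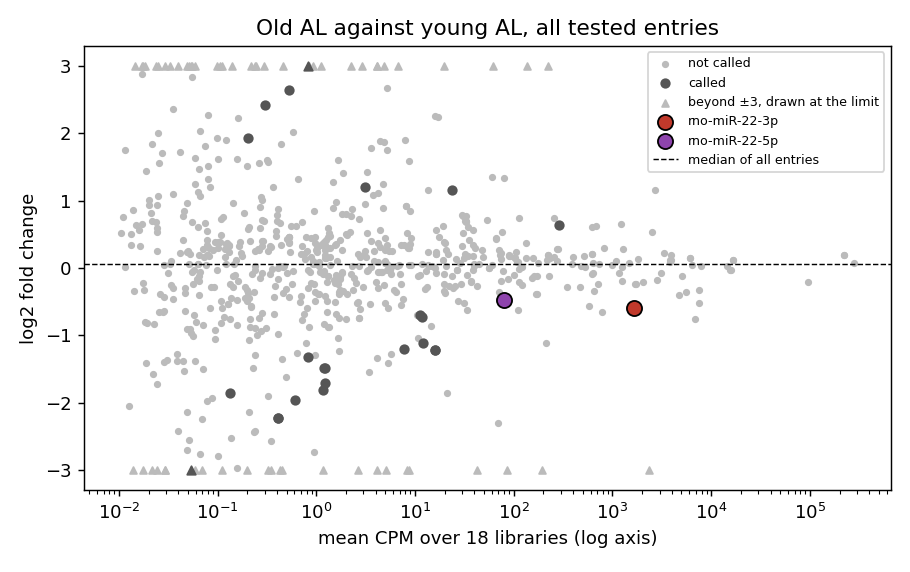
Log2 fold change (old AL against young AL muscle) of the 732 tested entries (points) against their mean CPM over 18 libraries (log axis), with called entries in dark grey, the arms of miR-22 in colour and the median of all entries as a dashed line. The 62 entries beyond ±3 are drawn as triangles at the limit, and both arms, at −0.59 and −0.47, lie below the median of 0.06.

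In old CR against young AL muscle both arms again had lower means. The log2 fold change was −0.48 ± 0.167 (SE, 95% interval −0.84 to −0.11), 1.39-fold lower, for rno-miR-22-3p. For rno-miR-22-5p it was −0.45 ± 0.211 (SE, 95% interval −0.91 to 0.01), 1.37-fold lower. By edgeR, 68 of 730 entries (9.32%) were called and 0 of 2 members. An unadjusted p under 0.05 by edgeR was held by 186 of the 730 entries, 1 of them a member, rno-miR-22-3p. DESeq2 called 109 entries and 0 members. The fold limit of 1.5 was not reached by either arm, but it lies within both intervals. The groups did not overlap for 37 entries (5.07%), neither arm of miR-22 among them. Of all tested entries, with a median of 0.08, 21.8% were lower than rno-miR-22-3p and 22.9% lower than rno-miR-22-5p. Of the 205 entries with at least 10 CPM, with a median of 0.05, 16 (7.80%) were lower than rno-miR-22-3p and 22 (10.7%) lower than rno-miR-22-5p.

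For old CR against old AL muscle, the comparison of diets at 1 age, the log2 fold change of rno-miR-22-3p was 0.12 ± 0.129 (SE, 95% interval −0.16 to 0.41), 1.09-fold higher. That of rno-miR-22-5p was 0.03 ± 0.193 (SE, 95% interval −0.39 to 0.45), 1.02-fold higher. Both intervals included 0. The direction depended on the scaling, since with library totals the log2 fold changes were −0.23 for rno-miR-22-3p and −0.41 for rno-miR-22-5p. By edgeR, 2 of 736 entries (0.272%) were called and 0 of 2 members. An unadjusted p under 0.05 by edgeR was held by 88 of the 736 entries, 0 of them members. DESeq2 called 19 entries and 0 members. The groups did not overlap for 4 entries (0.543%), neither arm among them. Of all tested entries, 62.0% were lower than rno-miR-22-3p and 52.4% lower than rno-miR-22-5p. Among the 204 entries with at least 10 CPM, 70.6% were lower than rno-miR-22-3p and 51.5% lower than rno-miR-22-5p. The 3 comparisons share their groups in pairs, so that a high or low group enters 2 of them.

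**Figure D3:**
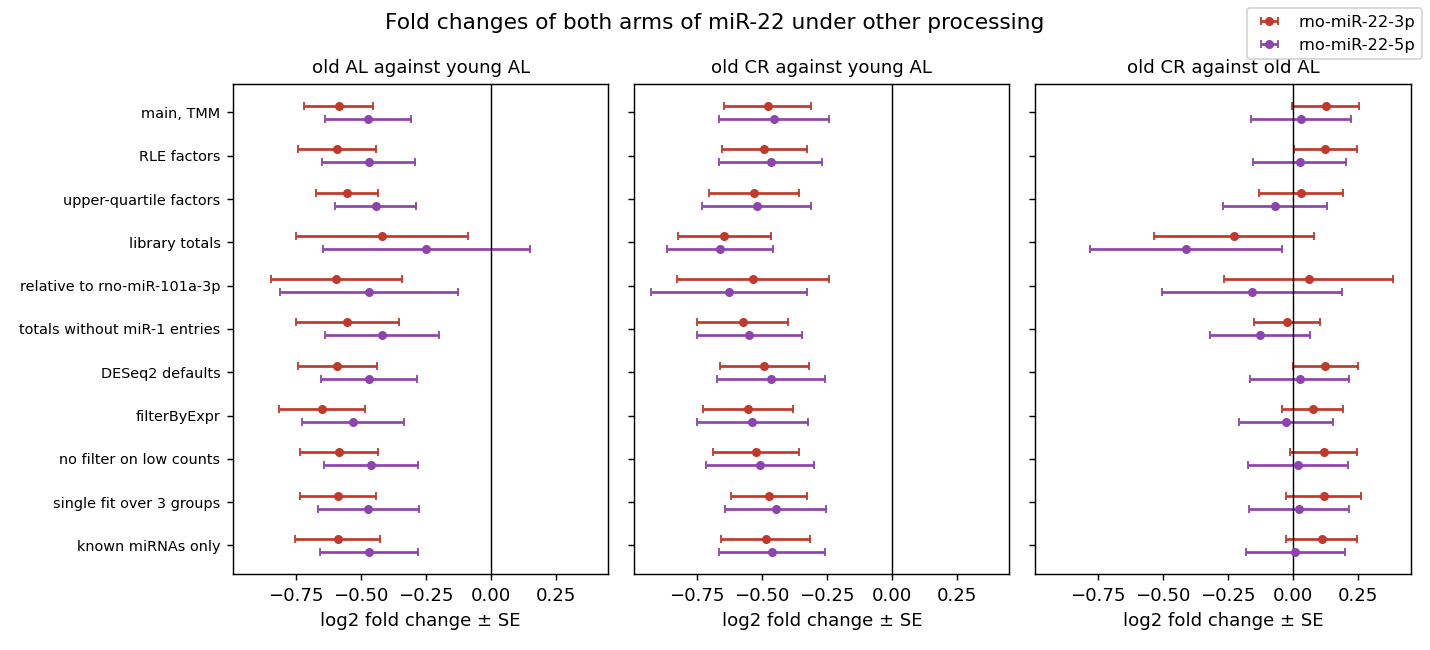
Log2 fold change ± SE of rno-miR-22-3p (red) and rno-miR-22-5p (purple) in the 3 comparisons, for the main analysis in the top row and 10 other ways of processing below it. Both arms lie below 0 in each row of both comparisons with young AL, and in old CR against old AL they lie on either side of 0, from −0.41 to 0.12.

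How far the groups were separated depended on the scaling of the libraries. With CPM of the library total in place of TMM, rno-miR-22-3p ran from 1489 to 2947 in young AL, with a median of 2286. In old AL it ran from 781 to 3106, with a median of 1324. The highest value of all 18 libraries was then old AL replicate 7, the library with the largest TMM factor, and 4 of 6 old AL libraries lay below every young AL library. Old CR ran from 1119 to 1564 (median 1409), with 4 of 6 libraries below every young AL library. Set against rno-miR-101a-3p, the reference miRNA of the study's RT-qPCR, rno-miR-22-3p had a median of 3599 counts per 1000 in young AL (2681 to 4599), of 2273 in old AL (1583 to 4117) and of 2081 in old CR (1772 to 4865). On that scale 5 of 6 old AL and 5 of 6 old CR libraries lay below every young AL library, and old AL replicate 7 and old CR replicate 15 were the exceptions. The old AL and young AL groups did not overlap after TMM, RLE or upper-quartile scaling. They overlapped after scaling to library totals, to totals without miR-1 or to rno-miR-101a-3p.

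**Figure D4:**
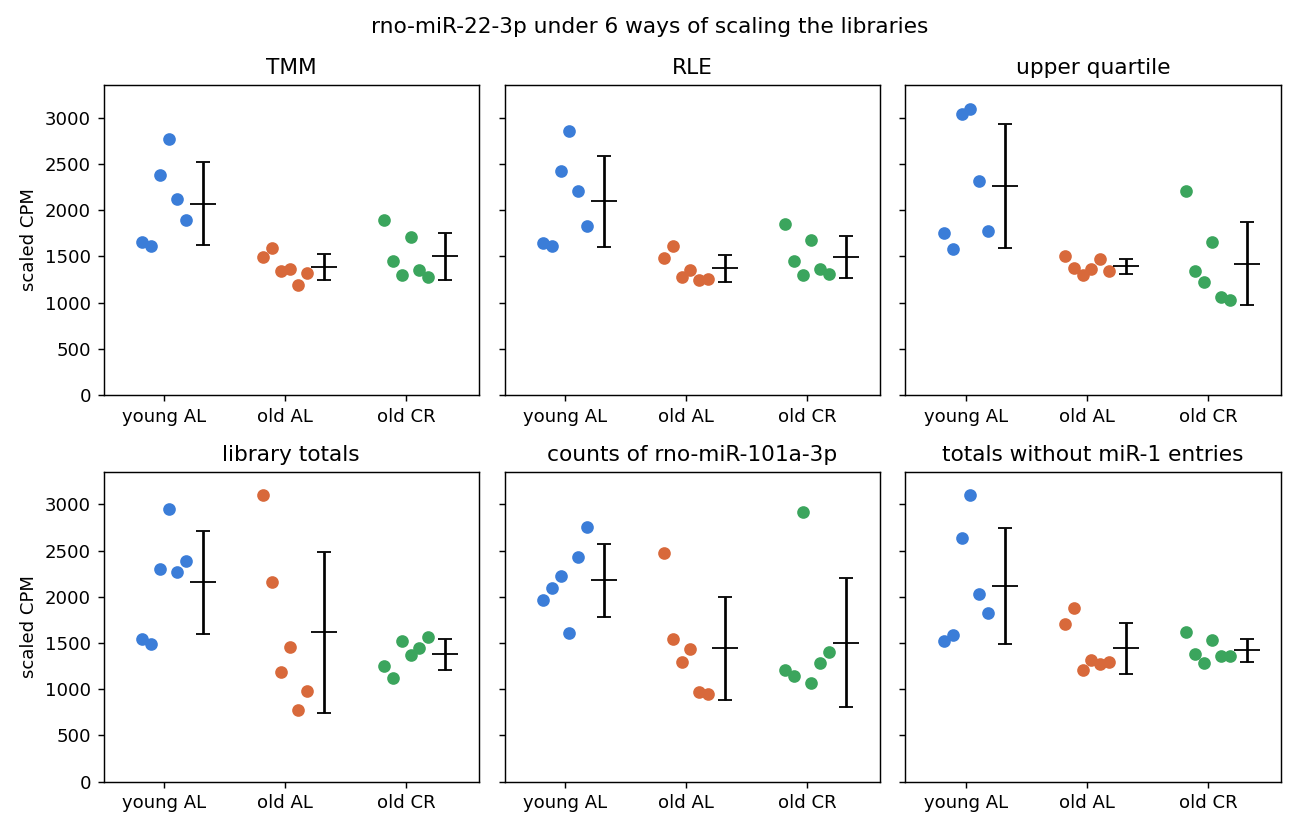
Level of rno-miR-22-3p in each library under 6 ways of scaling, with 1 point per rat and the mean ± SD beside each group of 6, and with the scaling factors set to the same geometric mean. Old AL and young AL do not overlap in the upper panels, while in the panel of library totals old AL replicate 7, at 3106, is above every other library.

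A rank within a library needs no scaling between libraries. By count, rno-miR-22-3p stood 22nd to 27th among the known miRNA entries in the young AL libraries, with a median of 26. In the old AL libraries it stood 28th to 32nd, with a median of 29.5, and under CR it stood 26th to 31st, with a median of 28. The ranks of old AL and young AL thus did not overlap, old AL replicate 7 included. They come from the same counts that chose miR-22 and are a description only. For how many other entries the ranks did not overlap was not computed. The median rank of rno-miR-22-5p was 78 in young AL (73 to 93), while it was 94 in old AL (85 to 101) and 92.5 in old CR (87 to 101), with all groups overlapping.

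The share of the 5p arm among the counts of both arms is also independent of scaling. Its median was 45.2 per 1000 in young AL, with a range of 36.1 to 54.5. The old AL libraries ran from 42.6 to 59.7 around a median of 46.7, and those of old CR from 36.6 to 53.8 around a median of 46.8. The rno-miR-22-3p arm thus had 15.7 to 26.7 times the counts of rno-miR-22-5p in every library. Mean shares (SD, n = 6 each) were 45.0 ± 6.79 for the young AL group, 48.2 ± 6.08 for old AL and 45.0 ± 6.29 for old CR, and the groups differed by less than their SD. Single libraries differed by more than counting error, with Wilson 95% intervals of 35.1 to 37.2 in young AL replicate 4 and 58.6 to 60.9 in old AL replicate 7, the highest value. The intervals count reads, which carry no molecular identifier and can be copies of 1 molecule, and so hold counting error alone.

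**Figure D5:**
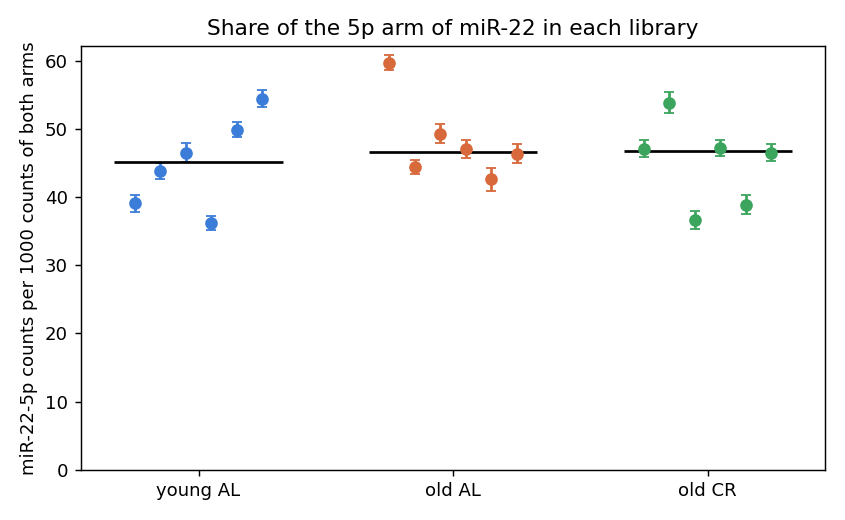
Counts of rno-miR-22-5p per 1000 counts of both arms in each library, with 1 point per rat, Wilson 95% intervals as bars and the median of each group as a line. The medians are 45.2, 46.7 and 46.8, and all 3 groups overlap.

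The miRNAs whose pattern over the 18 libraries was most like that of rno-miR-22-3p were sought among the 156 known miRNAs, itself included, with a mean of at least 10 CPM, by Pearson's r of log2 TMM CPM. The median r of these entries was −0.09 and the range −0.67 to 0.85. rno-miR-22-5p, the other arm of the hairpin, came first with r = 0.85, and still had 0.78 after group means were subtracted. Next were rno-miR-3074 (r = 0.72, 0.55 without group means), rno-miR-196b-5p (0.72 and 0.48), rno-miR-24-1-5p (0.72 and 0.58) and rno-miR-181d-5p (0.71 and 0.26). Mir3074 and Mir24-1 overlap on opposite strands of the same locus, and Mir196b is a gene of a Hox cluster. The mean levels of rno-miR-3074 and rno-miR-24-1-5p were near-equal (11.3 and 11.9 CPM), so they may not be separate signals. The points share their libraries, the group differences and the scaling, and with library totals the median r rose to 0.55, so these correlations are descriptions of likeness.

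The log2 fold changes of these entries are given beside those of miR-22. In old AL against young AL they were −0.69 ± 0.170 for rno-miR-3074, −0.73 ± 0.171 for rno-miR-24-1-5p, −1.11 ± 0.223 for rno-miR-181d-5p and −0.35 ± 0.103 for rno-miR-196b-5p (SE), of which the first 3 were called. For old CR against young AL they were −0.25 ± 0.183, −0.22 ± 0.195, −1.07 ± 0.175 and −0.16 ± 0.127 in the same order, and only rno-miR-181d-5p was called. rno-miR-22-3p, at −0.59 and −0.48, stood between them in both comparisons.

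Markers of the cell types that muscle samples can hold were read beside miR-22. With age in AL-fed rats, edgeR called 0 entries of the 6 lists in either direction. The median log2 fold change was 0.12 for the 13 tested striated muscle entries, −0.07 for 6 vascular, 0.03 for 3 fibroblast, 0.55 for 4 erythroid, 0.78 for 8 leukocyte and 1.18 for 6 neural entries, against 0.06 for all entries. Under CR against young AL, 6 of 6 neural entries were called higher, with rno-miR-9a-5p at 2.27 ± 0.485, rno-miR-9b-3p at 2.27 ± 0.486, rno-miR-9a-3p at 2.70 ± 0.606 and rno-miR-124-3p at 2.74 ± 0.614 (log2, SE). Their summed level was 13.7 to 41.2 CPM over the young AL libraries, 22.1 to 68.3 over old AL and 37.2 to 317 over old CR, and 0 neural entries were at 0 in all libraries of a group. The leukocyte entries summed to 126 to 172 CPM over the young AL libraries, 111 to 611 over old AL and 115 to 240 over old CR. Of the miR-9 entries, rno-miR-9a-5p and rno-miR-9b-3p had near-equal mean levels (30.5 and 29.6 CPM). They may share reads and so may not be separate among the 6 called. The medians of the other lists in that comparison were 0.13 for striated muscle, −0.18 for vascular, 0.19 for fibroblast, −0.27 for erythroid and 0.48 for leukocyte entries, with 0 called. Between the old groups the medians were −0.13 for striated muscle, 0.04 for vascular, 0.21 for fibroblast, −0.59 for erythroid, −0.27 for leukocyte and 1.41 for neural entries, again with 0 called. The most abundant entry of the striated muscle list, rno-miR-1-3p, had log2 fold changes of −0.21 ± 0.271, 0.24 ± 0.218 and 0.48 ± 0.302 (SE) in the 3 comparisons. It was 1 of 4 lower entries among the 13 tested of that list in old AL against young AL. The more abundant rno-miR-1b and rno-miR-3571, not in the list, stood at 0.20 and 0.08 in that comparison. In old AL against young AL the most abundant markers of the other lists stood at 0.04 ± 0.208 for rno-miR-143-3p (vascular), −0.08 ± 0.164 for rno-miR-199a-3p (fibroblast), 0.25 ± 0.243 for rno-miR-451-5p (erythroid), 0.15 ± 0.286 for rno-miR-150-5p (leukocyte) and 0.77 ± 0.317 for rno-miR-9a-5p (neural), the highest of them. What part differences in cell content have in the levels of miR-22 was not tested.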

How the data were processed

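Small RNA of gastrocnemius muscle was sequenced in 18 libraries (6 per group). The authors prepared libraries with the NEBNext small RNA kit, trimmed reads with Cutadapt and Sickle, identified miRNAs with miRDeep2 and deposited raw counts, which their methods attribute to featureCount. The submitters' processing notes name cutadapt 1.2.1, Bowtie2 2.4.0 and the build Rnor_6.0. How reads with several matching miRNAs were counted is not given in the sources used here. Some entries had near-equal mean levels, such as rno-miR-133a-3p (16811 CPM) and rno-miR-133c (16617 CPM). The library totals and the share of miR-1 can therefore hold reads counted under several entries. Sequences and coordinates come from RefSeq tables of GRCr8, not the build of the counts, and nothing was converted between builds. The hairpin was folded with RNAfold 2.7.2.

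The quasi-likelihood test of edgeR 4.0.16 (R 4.3.3, robust, TMM factors) was fitted to each pair of groups on its own, 12 libraries at a time, over entries with at least 10 counts in total, with Benjamini-Hochberg adjustment over all of them. Tests are two-sided, and the SE is the log2 fold change divided by the square root of F. The fit was tested on simulated data. DESeq2 1.42.0, the tool of the study's methods, was an alternative, beside other scalings, filters and left-out libraries. No 2 replicates were alike within counting error (lowest chi-square/df 1214). Each rat gave 1 library, so p-values measure the spread between libraries, in which rats and library preparation cannot be told apart.

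The members, the 6 marker lists (striated muscle, erythroid, leukocyte, vascular, fibroblast and neural) and the tests were chosen with earlier results of these data known. Other entries were named by a rule: the 5 known miRNAs most correlated with rno-miR-22-3p, its neighbours and those of rno-miR-22-5p in mean CPM, rno-miR-101a-3p, entries nearest to the thresholds, and called or abundant members of each list. The neighbours of rno-miR-22-5p and the entries at the thresholds were added after their values were seen. The RT-qPCR, target predictions and cell culture of the study were not used here.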

Additional observations from a re-analysis of the deposited data

How the results depend on the processing

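No paired analysis was possible, because the groups held different rats and the labels named no pairs. The log2 fold change of rno-miR-22-3p between old AL and young AL was negative in 26 of 26 settings and called in 11. It was not called with RLE factors (−0.59, adjusted p = 0.0651 by edgeR), upper-quartile factors (−0.55, where the p passed and the fold did not), library totals (−0.42), rno-miR-101a-3p as reference (−0.59), totals without miR-1 (−0.55) or no filter (−0.58). The adjusted p ran from 0.00185 (DESeq2) to 0.584 (library totals). Leaving out 1 library gave −0.65 to −0.51, and the call was lost without young AL replicates 3 (−0.54), 4 (−0.51), 5 (−0.59) or 6 (−0.61), or old AL replicates 7 (−0.61), 9 (−0.59), 10 (−0.59), 11 (−0.56) or 12 (−0.57). Relative to the median of all entries it stood at −0.80 to −0.58 in the 26 settings. That median moved from 0.06 to 0.23 with library totals, and from 0.01 to −0.27 for old CR against old AL.

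With young AL replicates 1 and 2 both left out, against young AL, rno-miR-22-5p was called in old AL (−0.65) and rno-miR-22-3p in old CR (−0.60). These 2 libraries were the lowest of young AL for both arms, so their removal raises the young AL mean by choice. No other pair was left out, and nothing is read from these calls. Leaving out 1 library changed no other call against young AL (−0.57 to −0.41 for the 5p arm in old AL, −0.55 to −0.38 and −0.55 to −0.36 for the 3p and 5p arms in old CR). Between old CR and old AL the direction turned for rno-miR-22-3p with library totals (−0.23) and totals without miR-1 (−0.022), and for rno-miR-22-5p with upper-quartile factors (−0.070), library totals (−0.41), rno-miR-101a-3p (−0.16), totals without miR-1 (−0.13) and filterByExpr (−0.026). Leaving out 1 library gave 0.041 to 0.17 for the 3p arm and −0.074 to 0.12 for the 5p arm, which turned without old AL replicate 11 or old CR replicates 13, 14 or 16. The cause was not tested. With library totals the old AL means were 1615 CPM (3p) and 85.7 CPM (5p). Of the 5 entries most like rno-miR-22-3p, 3 remained by Spearman's rho and 1 by deviations from group means.

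Entries called between old AL and young AL numbered 24, but 0 with library totals, 3 with rno-miR-101a-3p, 13 with totals without miR-1, 37 with filterByExpr, 53 over known miRNAs, 84 by DESeq2 and 9 to 20 with 1 library left out. For old CR against young AL they numbered 68, but 22 with rno-miR-101a-3p, 109 by DESeq2 and 45 to 67 with 1 library left out. Between the old groups they numbered 2, but 19 by DESeq2, 0 to 3 with 1 library left out and 0 in 6 other settings.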
